A study of Mus musculus with 12 samples.

Results

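The RNA of a myelin-enriched membrane fraction of mouse brain was compared between postnatal day 18 (P18) and 6 months of age. The comparison holds the 3 samples labelled 6 months and the 3 labelled P18, which are 6 of the 12 samples of the series, and it was made over all genes: 14987 of the 21937 genes listed had enough reads to be tested. All 6 samples came from the brains of male wild type mice of the inbred strain c57Bl6/N, and the labels name no transgene, deletion or treatment in either group. Age is the only label by which the groups differ. The fraction collects membranes of low density from whole brain, so it is enriched for myelin and is not a population of sorted cells. The remaining 6 samples, at postnatal day 75 (P75) and 24 months, entered the fit through a shared estimate of the spread and are described at the end. Samples are numbered within an age, and whether these were separate animals is not stated in the labels, so p-values measure only the spread between these samples, which may be technical. No extraction or sequencing batch is given, and batch and age cannot be told apart.

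Myelin is the sheath that oligodendrocytes wrap around axons. At P18 the mouse brain is in the midst of active myelination, when oligodendrocytes synthesise membrane lipid and myelin protein at a high rate, and in the full adult the sheath is mostly maintained. Oligodendrocytes carry some mRNAs, with that of Mbp as the best known case, along their processes to the sheath and translate them there, so a myelin fraction holds RNA of the sheath itself. It also carries RNA of axons, synaptic membranes and other glia that float at the same density. Levels in such a bulk fraction cannot tell fewer cells or processes of a type from less RNA in each, and this holds for every gene described here.

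The 6 samples held 20579740 to 27214385 recovered reads in genes. Values are normalised read counts, that is, reads divided by 1 size factor per sample, and changes are differences of log2(value + 1) given as log2 fold change ± SE with n = 3 at each age. "Rose" and "fell" are used only of genes that passed the limma test at an adjusted p below 0.05. Of the 14987 genes tested, 62.9% passed: 4822 rose (32.2%) and 4612 fell (30.8%) from P18 to 6 months. The counts of each list below are to be read against these shares. In 66.4% of genes the values of the 2 ages did not overlap, and each mention of no overlap below is to be read against this share. Of the genes that passed, 2615 differed by at least 2-fold (17.4% of genes tested), and among these 1756 rose (11.7%) and 859 fell (5.73%). On the first principal component of the 6 samples (78.7% of the variance) the P18 samples lay at -49.1 to -46.5 and the 6 months samples at 43.3 to 55.4. P18 replicate 3 stood apart on the second component (9.81%), at -33.4, where P18 replicates 1 and 2 had 19.4 and 13.3. Without it, 4823 genes rose and 4545 fell.

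Scaling and gene length bear on every list below. Genes that rose made up 51.1% of those that passed with the deposited scaling and 61.7% when each library was scaled to the same total, which moved the median log2 fold change of all genes from -0.0042 to 0.11. The change also went with the length of the gene. Among the shortest 20% of genes (exon length 62 to 1877 bases) 15.4% rose and 54.1% fell, with a median log2 fold change of -0.42. Among the longest 20% (5532 to 123179 bases) 44.6% rose and 17.1% fell, with a median of 0.21. Across 14822 genes Spearman's rho between length and change was 0.299, a description, since genes are not independent replicates. What the trend comes from was not tested, and counts with the trend removed stand beside the main ones for the lists of the shortest and the longest genes and for those whose counts it moved by over 1.5 times.

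**Figure D1:**
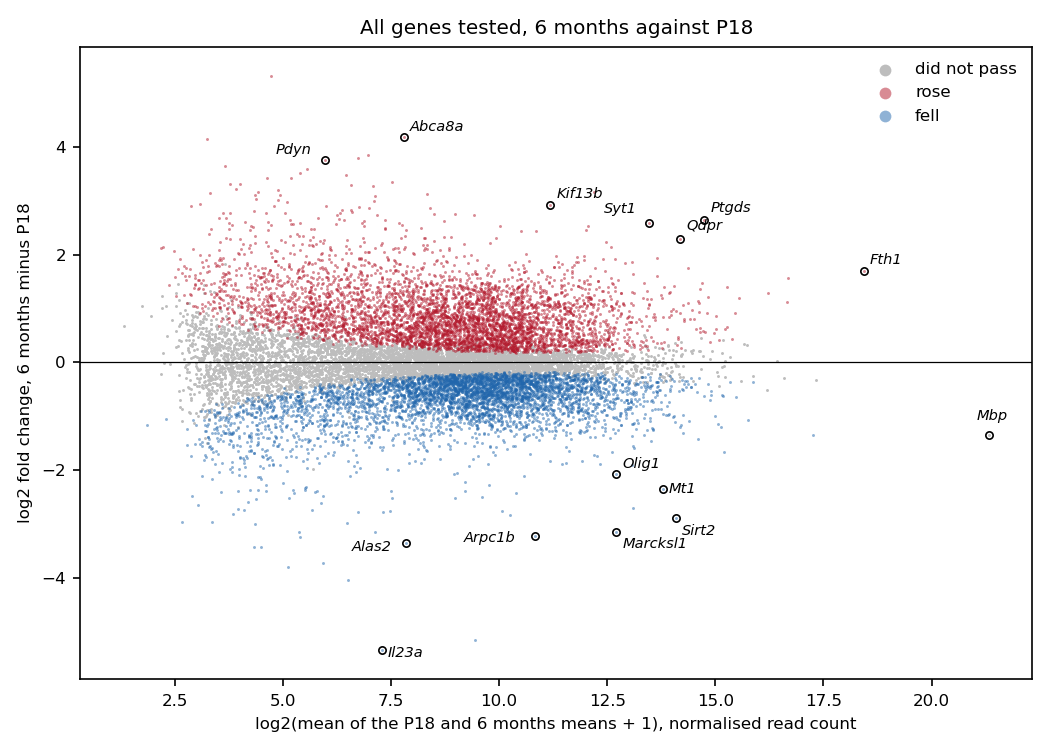
Each point is 1 of the 14987 genes tested, with the log2 mean normalised read count on the x axis and the log2 fold change of 6 months minus P18 on the y axis; red genes rose, blue genes fell and grey genes did not pass. Mbp lies at the far right at -1.34, Fth1 at 1.71, and the labelled falls of Sirt2, Marcksl1 and Il23a reach -2.89, -3.15 and -5.35.

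**Figure D2:**
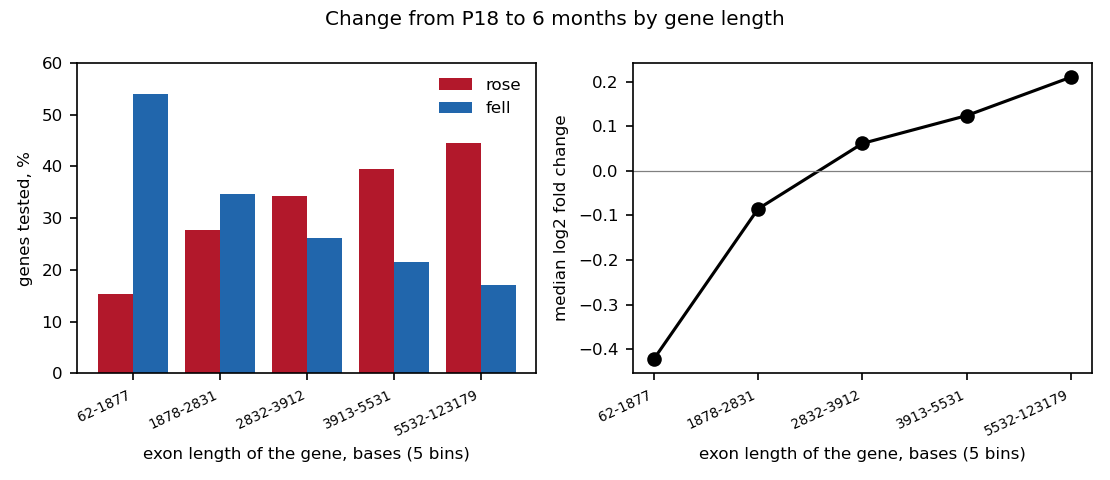
Genes tested were split into 5 bins of like size by exon length in bases (x axis). The left panel gives the percent that rose and fell and the right panel the median log2 fold change, which runs from -0.42 in the shortest to 0.21 in the longest bin.

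Among structural myelin proteins the transcripts of Cldn11, Mal, Cnp and Mog fell, those of Mbp were lower without passing the test, and those of Mag and Mobp overlapped between the ages. Cldn11 encodes the claudin of the myelin tight junctions, and its values were 17746, 16398 and 12534 at P18 and 6411, 6905 and 5934 at 6 months. Every P18 sample lay above every 6 months sample, and Cldn11 fell by 1.27 ± 0.13 (limma, adjusted p = 3.45e-07). Mbp, which encodes the basic protein that holds the cytoplasmic faces of the sheath together, had the highest normalised read count of any gene in all 6 samples, at 3686430, 5580860 and 2134340 at P18 and 1114060, 2048140 and 1185830 at 6 months. The groups did not overlap, but the P18 samples were widely spread, and the log2 difference of -1.34 ± 0.60 did not pass (adjusted p = 0.062). Without P18 replicate 3, which had the lowest Mbp of its group, Mbp was lower by 1.70 on the log2 scale and passed (adjusted p = 0.0189). Mbp also passed with edgeR (adjusted p = 0.00159), DESeq2 (adjusted p = 6.73e-04), equal library totals (adjusted p = 0.0107), a stricter filter on low values (adjusted p = 0.0374) and the length trend removed (adjusted p = 0.0207), and without 6 months replicate 2 (adjusted p = 0.0417). It did not pass under the other 11 of 18 alternatives, in which the adjusted p for Mbp reached 1 with quantile normalization, where the log2 difference was 0 because that scaling gives the top gene of every sample the same value. Mbp took 15.1% ± 5.65 of all reads at P18 and 6.32% ± 1.87 at 6 months (SD, n = 3). Mobp, a small basic protein of the major dense line whose mRNA is also carried to the sheath, had 180344, 265783 and 110326 at P18 and 117100, 185217 and 124658 at 6 months. Its groups overlapped and its difference of -0.32 ± 0.31 did not pass (adjusted p = 0.373); without P18 replicate 3 the adjusted p was 0.0469.

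Among the 15 compact myelin proteins, 4 rose, 4 fell and 7 did not pass (median log2 fold change -0.051); with the length trend removed 6 rose and 5 fell (median 0.15). Mal, a proteolipid of raft-like membranes, fell by 1.16 ± 0.15, from 26449 ± 6276 to 11634 ± 562 (SD, n = 3). The tetraspanin Tspan2 fell by 0.82 ± 0.15. Gpm6b, a tetraspan membrane glycoprotein, went the other way and rose by 0.92 ± 0.17, from 31334 ± 6322 to 58557 ± 7241, and so did Pmp22, known from peripheral myelin, by 0.87 ± 0.17, Myadm by 0.81 ± 0.15 and the tetraspanin Cd81 by 0.30 ± 0.10. P18 replicate 3 had the lowest P18 value of Mbp and Mobp; without it 8 members of the list fell, the median was -0.28, and the rise of Cd81 did not pass (adjusted p = 0.0614), nor did it without 6 months replicate 2 (adjusted p = 0.063).

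Among the 22 proteins of non-compact myelin and the adaxonal membrane, 7 rose, 8 fell and 7 did not pass (median log2 fold change -0.017). Sirt2, a tubulin deacetylase of the sheath, had 27874, 36774 and 27628 at P18 and 3815, 4795 and 3767 at 6 months. The P18 samples stood more than 5 times above every 6 months sample, and Sirt2 fell by 2.89 ± 0.12 (adjusted p = 6.85e-11). Cnp, the phosphodiesterase that keeps cytoplasmic channels open in myelin, had 38563, 43229 and 27650 at P18 and 14197, 14989 and 11111 at 6 months and fell by 1.43 ± 0.15 (adjusted p = 4.82e-07). Gsn, the actin-severing protein gelsolin, fell by 1.26 ± 0.14. Mog, on the outermost surface of the sheath, fell by 0.89 ± 0.13. Mag, an adhesion protein of the innermost wrap, had 8096, 8442 and 6037 at P18 and 7090.1, 7453 and 6025 at 6 months, with overlapping groups and no difference that passed (-0.12 ± 0.12, adjusted p = 0.393; without P18 replicate 3, adjusted p = 0.0286). Of the members that rose, Cntn2, the contactin of the juxtaparanode, rose by 1.45 ± 0.13 from 961 ± 149 to 2621 ± 372, and Omg, a myelin inhibitor of neurite growth, by 0.87 ± 0.08. Neither gene had overlap between the ages, nor did 66.4% of all genes tested. Without P18 replicate 3 the median of the list was -0.26.

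**Figure D3:**
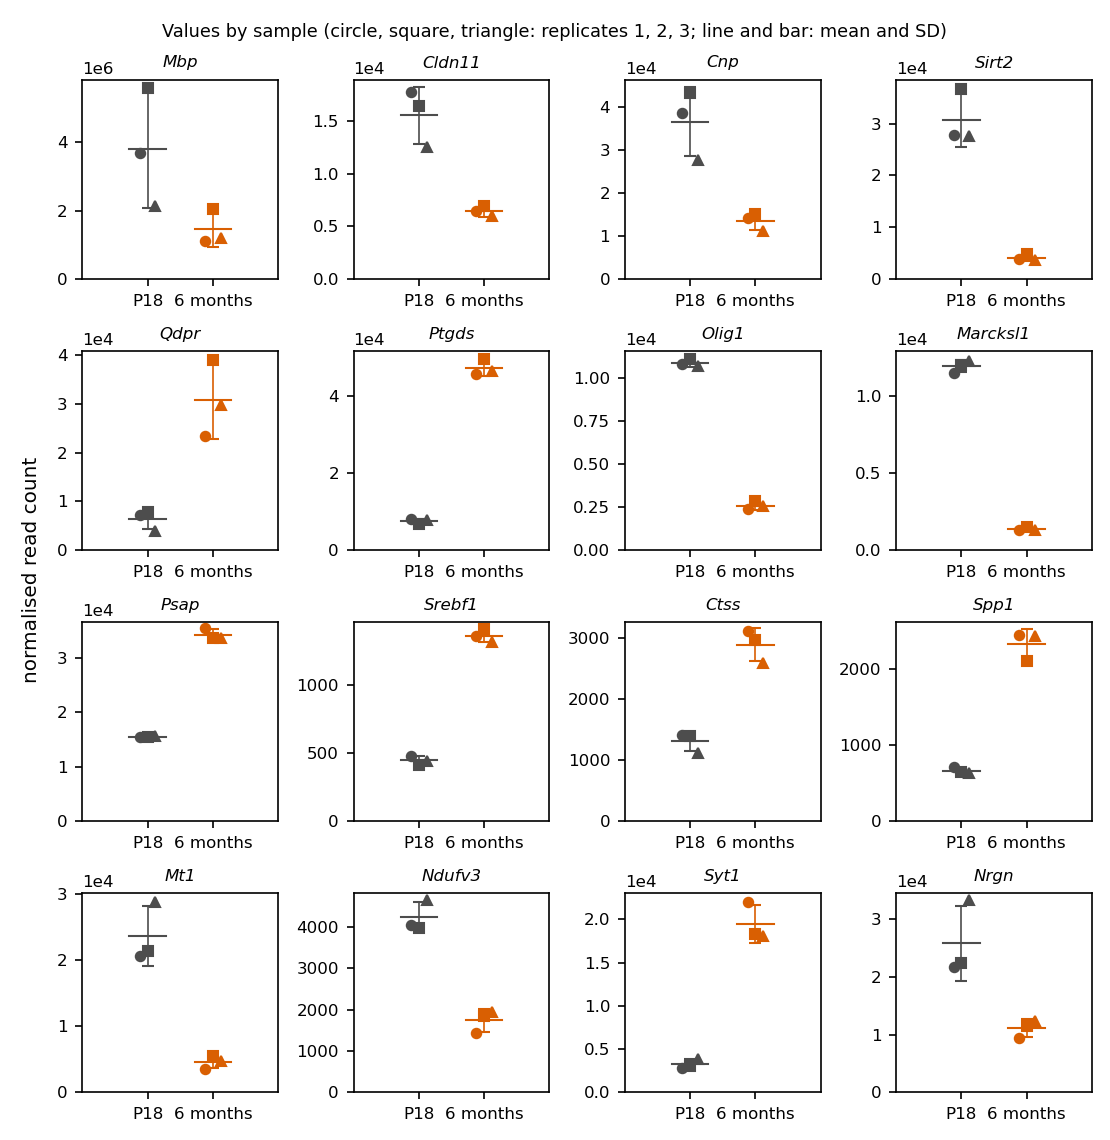
Normalised read counts (y axis, linear, from 0) of 16 genes in the 3 P18 samples and the 3 samples at 6 months, with the mean and SD as line and bar. The ages do not overlap in any panel, as in 66.4% of all genes tested. P18 replicate 3 (triangle) is the lowest P18 sample for Mbp, Cldn11 and Cnp and the highest for Mt1, Syt1 and Nrgn.

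Genes of mature oligodendrocytes split into a larger set that rose and a smaller set that fell. Of 36 tested, 19 rose, 9 fell and 8 did not pass (median log2 fold change 0.46). Ptgds, the prostaglandin D synthase secreted by adult oligodendrocytes and the meninges, had 8046, 6909 and 7724 at P18 and 45554, 49446 and 46529 at 6 months and rose by 2.64 ± 0.12 (adjusted p = 2.13e-10). All values at 6 months were over 5 times those at P18. Il33, an alarmin stored in oligodendrocyte nuclei, rose by 2.44 ± 0.13, from 454 ± 93.5 to 2442 ± 272. Galnt6, which starts mucin-type glycosylation, rose by 1.88 ± 0.14, and Pex5l, a peroxisomal receptor homologue that regulates channel trafficking, by 1.48 ± 0.13. Qdpr, which recycles tetrahydrobiopterin, had 7228, 7925 and 3981 at P18 and 23392, 39062 and 29742 at 6 months, with the groups far apart and a rise of 2.30 ± 0.22. Against these, Nkx6-2, a homeodomain factor of the lineage, fell by 1.24 ± 0.12, from 653 ± 32.3 to 277 ± 32.4. Sox10, the factor that defines the lineage, was present in every sample (2789, 2531 and 2617 at P18 and 1450.2, 1689 and 1252 at 6 months) and fell by 0.86 ± 0.14, as did the defining markers Mog and Cldn11, while Mag did not pass.

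Genes that mark newly formed oligodendrocytes fell in most cases. Of 29 tested, 4 rose, 21 fell and 4 did not pass (median log2 fold change -0.93), against 30.8% of all genes that fell; with the length trend removed 2 rose and 23 fell (median -1.18). The long non-coding transcript 9630013A20Rik, an established marker of this stage, had 1370.1, 1516 and 1199 at P18 and 34.1, 35.5 and 41.8 at 6 months, and fell by 5.16 ± 0.22 (adjusted p = 1.56e-10). Rras2, a small GTPase, had 963, 1109.6 and 866 at P18 and 194, 223 and 206 at 6 months and fell by 2.23 ± 0.12. Neu4, a sialidase, fell by 1.64 ± 0.11 from 489 ± 22.5 to 157 ± 17.8, with no overlap. Kif21a, a kinesin also expressed by neurons, rose by 0.57 ± 0.081. Some members are also expressed in mature cells: Sirt2 and Ugt8a belong to 2 lists.

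Precursor genes did not move as a set: of 22 tested, 8 rose, 7 fell and 7 did not pass (median log2 fold change -0.093), and 11 fell and 6 rose with the length trend removed. The lineage transcription factors Olig1, Olig2 and Sox8 fell. Olig1 had 10808, 11096 and 10660 at P18 and 2357, 2857 and 2533 at 6 months, a tight group at each age, and fell by 2.08 ± 0.091 (adjusted p = 1.95e-10). Olig2 fell by 1.60 ± 0.11, from 1738 ± 107 to 570.1 ± 12.8, and Sox8 fell by 1.07 ± 0.092. Cspg5, a proteoglycan that neurons and astrocytes also make, rose by 1.13 ± 0.076. The defining precursor marker Pdgfra had 638, 629 and 779 at P18 and 886, 767 and 790.2 at 6 months, overlapping by a small margin, and rose by 0.26 ± 0.098 with the deposited scaling (adjusted p = 0.03), a call lost with the length trend removed (log2 difference -0.013), with the 6 samples alone (adjusted p = 0.0612), and without P18 replicate 1 (adjusted p = 0.108), P18 replicate 2 (adjusted p = 0.122) or 6 months replicate 1 (adjusted p = 0.131). Cspg4 did not pass (-0.28 ± 0.15, adjusted p = 0.121), but did without P18 replicate 1 (adjusted p = 0.0224), with quantile normalization (adjusted p = 0.0246) and with the length trend removed (adjusted p = 0.00429).

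Cholesterol is the lipid whose supply limits myelin growth, and oligodendrocytes make it themselves. Its synthesis enzymes did not change as a set: of 21 tested, 8 rose, 8 fell and 5 did not pass (median log2 fold change 0.011). Acat2, the thiolase that starts it, had 2167, 1975 and 1864 at P18 and 860.4, 943 and 893 at 6 months and fell by 1.15 ± 0.081 (adjusted p = 1.03e-08). Fdps, which makes farnesyl diphosphate, fell by 1.17 ± 0.095 from 4211 ± 186 to 1876 ± 118. Of the enzymes that act on phosphorylated mevalonate, Mvd fell by 1.40 ± 0.12 and Pmvk fell by 0.99 ± 0.092. The rise with the lowest p was that of 0610007P14Rik, the homologue of a yeast scaffold for sterol enzymes, by 0.64 ± 0.081.

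Genes of sterol sensing, uptake and efflux rose in most cases. Of 23 tested, 17 rose, 1 fell and 5 did not pass (median log2 fold change 0.81), against 32.2% of all genes that rose; with the length trend removed 16 rose and 2 fell (median 0.58). Abca8a, an ATP-binding cassette lipid transporter of oligodendrocytes, had 26.1, 26 and 15.1 at P18 and 462, 433 and 359 at 6 months and rose by 4.2 ± 0.20, the largest rise of any gene that the naming rule admits (adjusted p = 4.33e-10). Srebf1, a transcription factor that turns on fatty acid genes, had 478, 415 and 445 at P18 and 1358, 1409.5 and 1316 at 6 months. The groups were far apart, and Srebf1 rose by 1.61 ± 0.086 (adjusted p = 1.09e-09). Its relative for sterol genes, Srebf2, rose by 1.52 ± 0.11, from 802 ± 99.3 to 2290.3 ± 177, and the cholesterol exporter Abcg1 by 1.40 ± 0.088, from 754 ± 53.5 to 1994 ± 73.4. The member that fell was Mylip, the ligase that degrades the LDL receptor (0.55 ± 0.10).

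Of 30 genes of fatty acid and sphingolipid synthesis, 15 rose, 7 fell and 8 did not pass (median log2 fold change 0.34). With the length trend removed 14 rose and 10 fell (median 0.10). Scd3, a stearoyl-CoA desaturase, had 122, 168 and 124 at P18 and 608, 879 and 629.6 at 6 months and rose by 2.34 ± 0.15. Hsd17b12, the reductase of chain elongation, rose by 1.18 ± 0.093, Ugcg, which makes glucosylceramide, by 1.02 ± 0.089, and Kdsr, of sphingoid base synthesis, by 0.91 ± 0.083. Of the enzymes that make galactolipids, the sphingolipids typical of myelin, Gal3st1, Ugt8a and Fa2h fell. Gal3st1, which makes sulfatide, had 1353, 1277 and 773 at P18 and 329, 321 and 344 at 6 months, lower at 6 months in every sample, and fell by 1.73 ± 0.17 (adjusted p = 2.37e-07). Ugt8a, which makes galactosylceramide, had 10949, 9815 and 5029 at P18 and 4238, 3947 and 3847 at 6 months and fell by 1.02 ± 0.22, and Fa2h, the fatty acid hydroxylase that feeds it, fell by 0.71 ± 0.13.

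Genes for the breakdown of the same lipids rose. Of 14 lysosomal and related genes that take apart sphingolipids, galactolipids and gangliosides, 13 rose, 0 fell and 1 did not pass (median log2 fold change 1.12), the same count under equal library totals and with the length trend removed. Asah1, acid ceramidase, had 687, 635 and 617 at P18 and 1749.98, 1588 and 1535 at 6 months and rose by 1.33 ± 0.091 (adjusted p = 8.05e-09). Smpd1, acid sphingomyelinase, rose by 1.23 ± 0.086 from 997 ± 57.1 to 2346 ± 28.5. Arsa, which removes sulfate from sulfatide, rose by 1.35 ± 0.097 from 252 ± 12 to 644 ± 34.4, and Gla, an alpha-galactosidase, by 1.58 ± 0.13. Psap, the precursor of the saposins that present lipids to these enzymes, had 15436, 15506 and 15694 at P18 and 35494, 33611 and 33552 at 6 months, separated at the 2 ages by more than its spread, and rose by 1.14 ± 0.11. Galc, which cleaves galactosylceramide, rose by 0.57 ± 0.094 from 379 ± 32.8 to 563 ± 41.8. The member that did not pass was Gm2a, the GM2 activator (0.049 ± 0.079, adjusted p = 0.603).

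Iron is used by oligodendrocytes for lipid synthesis. Of 18 iron handling genes, 11 rose, 4 fell and 3 did not pass (median log2 fold change 0.69). Cp, the ferroxidase ceruloplasmin, had 39.2, 49.7 and 68.3 at P18 and 243, 227 and 209 at 6 months and rose by 2.12 ± 0.18 (adjusted p = 5.19e-08). Fth1, the heavy chain of ferritin, had 198900, 221953 and 91427 at P18 and 366269, 684863 and 559930 at 6 months and rose by 1.71 ± 0.39, while Ftl1, the light chain, had 10065, 10653 and 7458 at P18 and 2998, 4043 and 4306 at 6 months and fell by 1.31 ± 0.14. The chains of 1 complex therefore moved in opposite directions, with no overlap in either. Both have pseudogene copies, so their levels are uncertain. Trf, the iron carrier transferrin, rose by 1.40 ± 0.22, from 8240.1 ± 3090.3 to 20618 ± 2012, and Steap2, a metalloreductase, by 1.03 ± 0.10. P18 replicate 3 was the lowest sample for Fth1 and Trf; without it they rose by 1.31 and 1.04.

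The metallothioneins, small cysteine-rich proteins that bind zinc and copper, were among the largest falls of abundant genes. Mt1 had 20597, 21415 and 28832 at P18 and 3609.6, 5533 and 4760.4 at 6 months and fell by 2.35 ± 0.18 (adjusted p = 2.52e-08). Mt2 had 13221, 14289.9 and 18049 at P18 and 1872, 2737 and 2396 at 6 months and fell by 2.71 ± 0.19 (adjusted p = 8.29e-09). Mt3, the brain form, had 14682, 15252 and 15015 at P18 and 4542, 6533 and 6764 at 6 months and fell by 1.36 ± 0.14. Every P18 sample was above every 6 months sample for all 3 genes, while 66.4% of all genes had no overlap in either direction. Because they moved together, the promoters of the 2 with the largest change are shown, 5′ to 3′ from 250 bases before to 50 bases after the start (RefSeq, build GRCm38.p6, whereas the reads were aligned to mm9), with matches to the core of the metal response element in capitals (TGCACNC or TGCGCNC, searched on both strands).
Mt1 promoter (chr8:94178839-94179138, plus strand): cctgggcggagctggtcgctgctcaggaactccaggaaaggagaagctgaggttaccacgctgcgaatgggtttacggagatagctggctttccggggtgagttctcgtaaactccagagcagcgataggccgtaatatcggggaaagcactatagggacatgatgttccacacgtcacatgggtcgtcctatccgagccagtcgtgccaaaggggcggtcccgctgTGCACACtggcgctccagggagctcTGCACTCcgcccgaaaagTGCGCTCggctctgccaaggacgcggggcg
Mt2 promoter (chr8:94172368-94172667, plus strand): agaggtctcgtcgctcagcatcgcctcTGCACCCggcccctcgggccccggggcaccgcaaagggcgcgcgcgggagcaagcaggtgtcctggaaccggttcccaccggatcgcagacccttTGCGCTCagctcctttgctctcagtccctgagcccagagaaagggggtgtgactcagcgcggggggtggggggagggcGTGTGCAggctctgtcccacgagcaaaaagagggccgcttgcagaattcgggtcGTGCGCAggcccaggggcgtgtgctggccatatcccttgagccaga
The Mt1 window held 3 matches, the Mt2 window 4 and the Mt3 window 1, whereas 25.7% of 32851 promoters of the same length held at least 1. A match is a description of letters and shows no binding.

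Metallothioneins respond to glucocorticoids as well as to metal, and they were listed with circadian and glucocorticoid-responsive genes. Over its 26 tested members, 6 rose, 9 fell and 11 did not pass (median log2 fold change -0.094). Tsc22d3, a glucocorticoid-induced leucine zipper protein, had 7245, 7559 and 6621 at P18 and 1932, 2258 and 2278 at 6 months and fell by 1.73 ± 0.10 (adjusted p = 2.13e-09). Fkbp5, a co-chaperone of the glucocorticoid receptor, had 1122, 1314 and 1938 at P18 and 492, 458 and 485 at 6 months and fell by 1.57 ± 0.16. Bhlhe40, a clock repressor, rose by 0.80 ± 0.097. The labels give no time of day at collection.

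Microglia are the resident macrophages of the brain. Their homeostatic genes rose in most cases: of 25 tested, 20 rose, 1 fell and 4 did not pass (median log2 fold change 0.70), against 32.2% of all genes; with the length trend removed 21 rose and 0 fell (median 0.84). Ctss, a lysosomal cathepsin, had 1403, 1394 and 1121 at P18 and 3105, 2963 and 2583 at 6 months and rose by 1.15 ± 0.12 (adjusted p = 3.67e-07). The complement subunit C1qa rose by 0.89 ± 0.10 and the growth factor receptor Csf1r by 0.90 ± 0.10. The defining markers P2ry12 and Tmem119 rose by 0.67 ± 0.15 and 0.73 ± 0.14. The summed level of the list was 10804 to 12774 at P18 and 18446 to 20943 at 6 months. Aif1, a cytoskeletal protein used to stain microglia, fell by 0.57 ± 0.13 with the deposited scaling, and with the length trend removed that fall was lost (Aif1, log2 difference -0.034).

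The genes that microglia turn on around damaged myelin or plaques, and with them lysosomal and lipid genes, gave 17 rose, 3 fell and 6 did not pass (median log2 fold change 0.68), over 26 tested; with the length trend removed 19 rose and 2 fell (median 0.89). Spp1, the matrix protein osteopontin, had 709, 643 and 639 at P18 and 2445, 2108 and 2432 at 6 months and rose by 1.81 ± 0.087 (adjusted p = 4.65e-10). Lgals3bp, a secreted lectin ligand, rose by 2.04 ± 0.15 from 98.7 ± 4.52 to 413 ± 73.6, and Timp2, a metalloproteinase inhibitor, by 1.37 ± 0.10. Lyz2, a macrophage lysozyme, had 68.9, 48.6 and 49.2 at P18 and 286, 243 and 229 at 6 months and rose by 2.18 ± 0.17. Fabp5, a fatty acid carrier that other glia also express, fell by 1.67 ± 0.093, from 9548 ± 557 to 2996 ± 247. The induced members Cst7 and Itgax stayed near the detection limit, at means of 7.86 ± 2.36 and 5.86 ± 0.87 at 6 months, and did not pass; with the length trend removed Cst7 did (log2 difference 1.25, adjusted p = 0.0119).

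Complement genes showed no member that fell. Of 18 tested, 14 rose, 0 fell and 4 did not pass (median log2 fold change 0.86), against 32.2% of all genes that rose. With edgeR, DESeq2 or quantile normalization, and also without P18 replicate 3, 1 member fell. Serping1, the C1 inhibitor, had 80.8, 83.6 and 73.3 at P18 and 297, 312 and 289 at 6 months and rose by 1.91 ± 0.12 (adjusted p = 2.76e-09). Clu, clusterin, an abundant astrocyte chaperone, rose by 1.30 ± 0.12. C4b, which has a near-identical neighbouring copy and is therefore uncertain, had 153, 136 and 199.9 at P18 and 479, 523 and 380.5 at 6 months and rose by 1.50 ± 0.17. Genes of antigen presentation by MHC class I rose in most cases: of 18 tested, 12 rose, 2 fell and 4 did not pass (median log2 fold change 0.78). With the length trend removed 13 rose and 1 fell (median 0.82). H2-K1 had 273, 252 and 257 at P18 and 626, 627 and 545 at 6 months and rose by 1.19 ± 0.093, H2-D1 rose by 1.39 ± 0.12, Tap2, a subunit of the peptide transporter, by 1.72 ± 0.14, and the light chain B2m by 0.84 ± 0.085. None of these 4 genes, named for the lowest adjusted p of the list, overlapped between the ages, against 66.4% of all genes without overlap. Psmb10, a subunit of the immunoproteasome, fell by 0.83 ± 0.093.

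Interferon response genes did not share a direction: of 31 tested, 9 rose, 6 fell and 16 did not pass (median log2 fold change 0.15). The GTPase Gbp2 rose by 1.37 ± 0.27. Isg20, an exonuclease, fell by 2.52 ± 0.28, from 59.1 ± 13.2 to 9.39 ± 1.47.

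**Figure D4:**
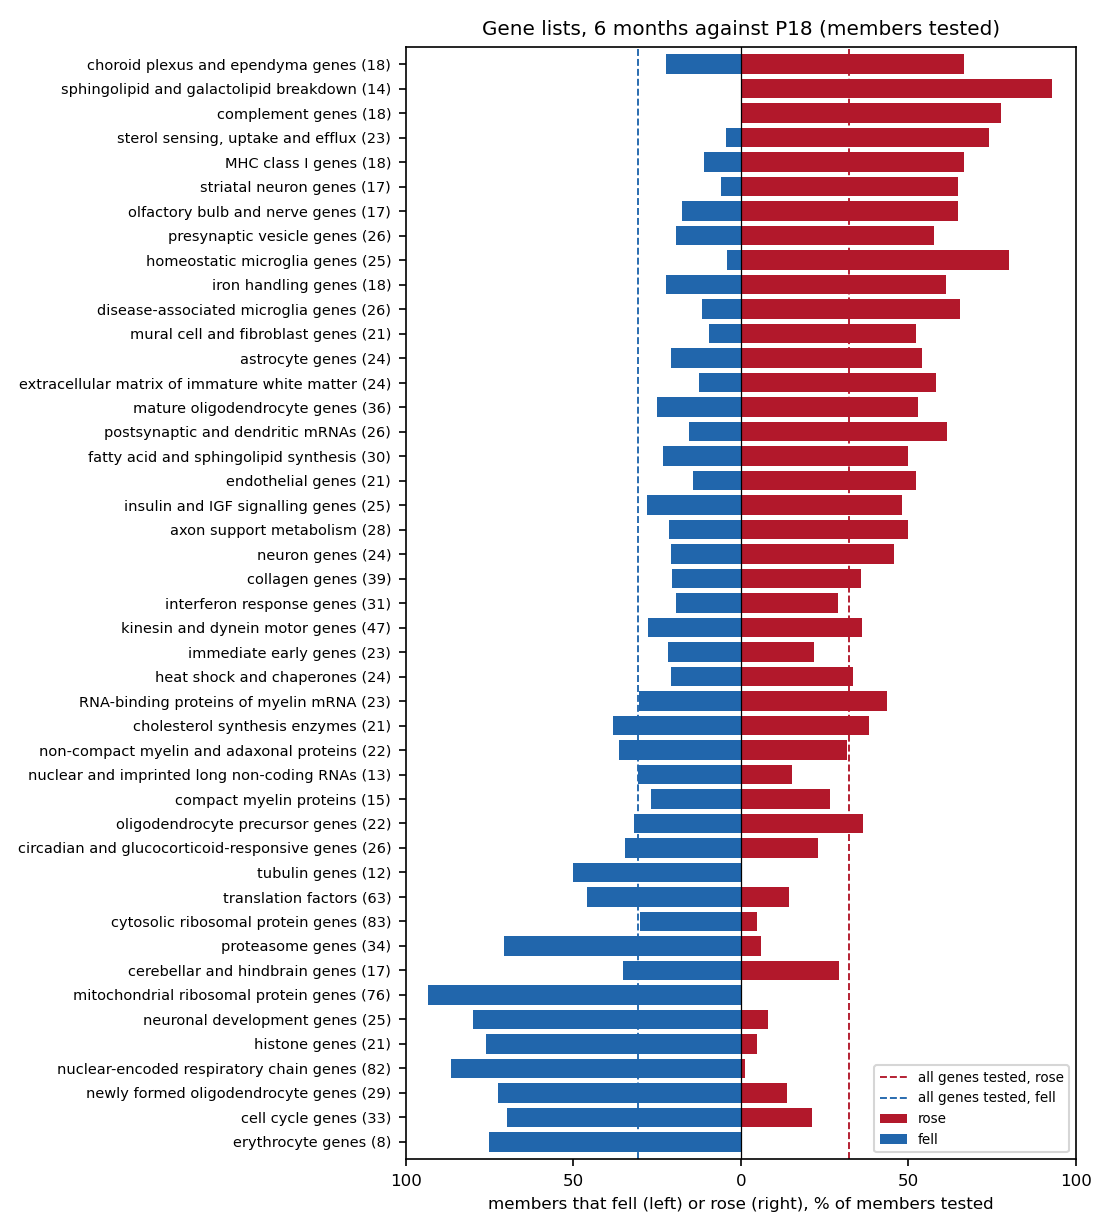
Percent of tested members that fell (left, blue) or rose (right, red) for the gene lists with at least 5 tested members, ordered by the median log2 fold change, with the number tested in brackets. Dashed lines mark the shares over all genes tested, 32.2% that rose and 30.8% that fell; respiratory chain, mitochondrial ribosomal, histone and newly formed oligodendrocyte genes lie far to the left and sphingolipid breakdown, microglial and complement genes to the right.

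Markers of other cell types show which other RNA the fraction carried, and they do not measure numbers of cells. Astrocyte genes summed to 201262 to 232989 at P18 and 240656 to 273343 at 6 months, and of 24 tested, 13 rose, 5 fell and 6 did not pass (median log2 fold change 0.55). The glutamate transporter Slc1a3 rose by 1.08 ± 0.11 and F3, tissue factor, by 0.94 ± 0.097, whereas the glycolytic enzyme Aldoc fell by 0.60 ± 0.12. Of the defining markers, Gfap, the intermediate filament, had 14618, 11249 and 6991 at P18 and 5654, 7255 and 4665 at 6 months and fell by 0.86 ± 0.20 although the groups overlapped, Aldh1l1 fell by 0.30 ± 0.085, a call lost with equal library totals (adjusted p = 0.13), and the water channel Aqp4 did not pass (0.57 ± 0.25, adjusted p = 0.0588), but did with equal library totals (adjusted p = 0.0101), with quantile normalization (adjusted p = 0.0444), and without P18 replicate 1 (adjusted p = 0.00559) or P18 replicate 2 (adjusted p = 0.0314).

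Endothelial genes summed to 8649.5 to 10460.1 at P18 and 14589 to 15192 at 6 months, and of 21, 11 rose, 3 fell and 7 did not pass (median log2 fold change 0.27). Pltp, a phospholipid transfer protein, rose by 1.72 ± 0.17, and Ly6c1 fell by 1.14 ± 0.17. The defining markers disagreed in sign: Pecam1 rose by 0.67 ± 0.16 and Cldn5 fell by 0.48 ± 0.14, a call lost with equal library totals (adjusted p = 0.0602) and with the length trend removed (adjusted p = 0.326). Mural cell and fibroblast genes summed to 5244 to 6522 at P18 and 8202 to 8446 at 6 months, and of 21, 11 rose, 2 fell and 8 did not pass (median log2 fold change 0.67). Dcn, the proteoglycan decorin of fibroblasts, had 263, 203 and 168 at P18 and 998, 954 and 926 at 6 months and rose by 2.20 ± 0.13 (adjusted p = 2.78e-09), the matrix protein Vtn rose by 1.66 ± 0.12 and the meningeal GABA transporter Slc6a13 by 2.56 ± 0.19. Pdgfrb, the defining mural marker, rose by 0.80 ± 0.11, and Col1a1 did not pass (-0.13 ± 0.25, adjusted p = 0.668).

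Choroid plexus and ependyma genes summed to 20173 to 24827 at P18 and 45605 to 48549 at 6 months. Of 18, 12 rose, 4 fell and 2 did not pass (median log2 fold change 1.14), against 32.2% of all genes that rose. Ttr, the thyroxine carrier of the choroid plexus, had 14188, 12097 and 14034 at P18 and 26426, 28974 and 30793 at 6 months and rose by 1.10 ± 0.12. Kcnj13, a potassium channel of that epithelium, rose by 2.31 ± 0.19, the coagulation factor F5 by 2.47 ± 0.21 and the defining folate receptor Folr1 by 1.60 ± 0.17. Ccdc153, a gene of motile cilia, fell by 1.73 ± 0.21, and Dynlrb2, a dynein light chain of cilia, fell by 1.56 ± 0.25.

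Genes of red cells fell in most cases. Alas2, the haem synthesis enzyme of erythroid cells, had 472, 362 and 414 at P18 and 29.2, 57.7 and 36 at 6 months and fell by 3.36 ± 0.21 (adjusted p = 3.53e-09). Of the 8 tested members of the list, 0 rose, 6 fell and 2 did not pass (median log2 fold change -1.10), against 30.8% of all genes that fell. Once the length trend was removed 1 rose and 6 fell. Of the 14 listed members 4, among them the haemoglobin genes Hba-a1 and Hbb-b1, were listed at 0 in all 6 samples. Of the 15 lymphocyte genes, 2 had enough reads to test (Ptprc and Cd4, both also expressed by microglia), with a summed level of 196 to 281 at P18 and 193 to 222 at 6 months for the list; Cd3e was at 0 in 4 of the 6 samples and Cd79a under 10 in all. The part of these cell types in the changes described was not tested.

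RNA of neurons was present in every sample. Neuron genes summed to 377616 to 434620 at P18 and 482484 to 540557 at 6 months, and of 24 tested, 11 rose, 5 fell and 8 did not pass (median log2 fold change 0.18). Syt1, the calcium sensor of synaptic vesicles, had 2808, 3079 and 3875 at P18 and 22037, 18319 and 18059 at 6 months and rose by 2.59 ± 0.13 (adjusted p = 6.92e-10). Slc32a1, the vesicular GABA transporter, rose by 1.69 ± 0.12 and Slc17a6, a vesicular glutamate transporter, by 1.03 ± 0.10. Of the defining neuronal markers, Slc17a7 rose by 1.18 ± 0.16, Rbfox3 fell by 0.35 ± 0.12, and Snap25 did not pass (-0.30 ± 0.17, adjusted p = 0.134). The fall of Rbfox3 was lost with equal library totals (adjusted p = 0.186) and without P18 replicate 3 (adjusted p = 0.113), 6 months replicate 1 (adjusted p = 0.0533) or 6 months replicate 3 (adjusted p = 0.0576). Snap25 passed with edgeR (adjusted p = 0.0399), DESeq2 (adjusted p = 0.00119) and quantile normalization (log2 difference -0.59, adjusted p = 0.0200).

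Genes of neuronal growth fell in most cases. Of 25 tested, 2 rose, 20 fell and 3 did not pass (median log2 fold change -0.69), against 30.8% of all genes; with the length trend removed 1 rose and 17 fell (median -0.61). Marcksl1, an actin-binding protein of growing processes, had 11509.7, 12062 and 12315 at P18 and 1290.1, 1481 and 1283 at 6 months and fell by 3.15 ± 0.081, with the lowest adjusted p of all genes tested (2.25e-13). D0H4S114, also known as P311, had 13892, 14285 and 12399 at P18 and 3423, 3684 and 3752 at 6 months and fell by 1.90 ± 0.084. The growth cone protein Gap43 fell by 0.94 ± 0.082, from 10278 ± 606 to 5353 ± 302, Mllt11 fell by 1.15 ± 0.096, and Marcks fell by 1.23 ± 0.11. Ncam1, a cell adhesion molecule, rose by 0.53 ± 0.096.

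Among synaptic genes of the adult more members rose than fell. Of 26 presynaptic vesicle genes, 15 rose, 5 fell and 6 did not pass (median log2 fold change 0.71); under equal library totals 15 rose and 1 fell, and with the length trend removed 15 rose and 7 fell (median 0.51). Sv2b and Sv2a, vesicle glycoproteins, rose by 1.45 ± 0.10 and 1.70 ± 0.13, from 2277 ± 197 to 6249 ± 705 and from 2622 ± 275 to 8525 ± 1132. Stx1a, a syntaxin of the release machinery, fell by 0.56 ± 0.11. Of 26 postsynaptic and dendritic mRNAs, 16 rose, 4 fell and 6 did not pass (median log2 fold change 0.45); with the length trend removed 12 rose and 7 fell (median 0.18). The AMPA receptor subunit Gria2 had 2897, 2985 and 4062 at P18 and 10067, 7863 and 9533 at 6 months and rose by 1.47 ± 0.13 (adjusted p = 8.78e-08), and Gria1 rose by 1.16 ± 0.10. Nrgn, the dendritic calmodulin-binding protein neurogranin, had 21766, 22530.2 and 33329 at P18 and 9366, 11598 and 12411 at 6 months and fell by 1.20 ± 0.16. P18 replicate 3 was the highest sample for Nrgn, and without it Nrgn fell by 1.0.

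Lists of region markers differed from each other. Of 17 striatal neuron genes, 11 rose, 1 fell and 5 did not pass (median log2 fold change 0.75), against 32.2% of all genes that rose. With the length trend removed 10 rose and 2 fell (median 0.74). Scn4b, a sodium channel subunit, had 995, 1295 and 1067 at P18 and 4277, 3471 and 3651 at 6 months and rose by 1.77 ± 0.11, and the dopamine receptor Drd1a rose by 1.63 ± 0.16. Foxp1, a transcription factor, fell by 0.50 ± 0.091. Of 17 olfactory genes, 11 rose, 3 fell and 3 did not pass (median log2 fold change 0.73). Their summed level did not go up with this count: it was 11404 to 15501 at P18 and 11337 to 11914 at 6 months. Cdhr1, a cadherin of olfactory bulb neurons, rose by 2.87 ± 0.19 from 81.5 ± 20 to 591 ± 33.3 and Adcy3, the cyclase of olfactory cilia, by 2.14 ± 0.17. Omp, the defining marker of olfactory sensory neurons, was uneven at P18 (177, 50.9 and 16.1 at P18 and 344, 255 and 394 at 6 months). It rose by 2.60 ± 0.52, and its 3 P18 samples span more than 10-fold. Of 17 cerebellar and hindbrain genes, 5 rose (29.4%), 6 fell (35.3%) and 6 did not pass (median log2 fold change -0.61). These shares lie near those of all genes (32.2% and 30.8%). Without P18 replicate 3, 10 members fell. Neurod1, a factor of granule cells, had 5223, 5245 and 5591 at P18 and 2155, 2129 and 2387 at 6 months and fell by 1.27 ± 0.082, Zic2 fell by 0.95 ± 0.087, and Gabra6, the granule cell GABA receptor subunit, rose by 0.50 ± 0.097.

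Proliferation genes fell in most cases. Of 33 cell cycle genes, 7 rose, 23 fell and 3 did not pass (median log2 fold change -0.93), against 30.8% of all genes that fell. With the stricter filter on low values, a minimum of 50 that leaves fewer genes tested, 13 fell. Hmgb2, a chromatin protein of dividing cells, had 564, 589 and 598 at P18 and 192, 203 and 202 at 6 months and fell by 1.55 ± 0.12 (adjusted p = 3.29e-08). Cenpa, the centromeric histone, fell by 2.39 ± 0.21 and Mki67, the Ki-67 antigen, by 1.87 ± 0.23, from 87.9 ± 15.6 to 23.7 ± 6.65. Rrm1, a subunit of ribonucleotide reductase, rose by 0.98 ± 0.11, as did 5 of the replication helicase subunits (Mcm2, Mcm4, Mcm5, Mcm6 and Mcm7). Of 21 histone genes tested, 1 rose, 16 fell and 4 did not pass (median log2 fold change -0.79), again against 30.8% of all genes that fell. With the length trend removed 1 rose and 12 fell (median -0.54). H3f3a, a replacement histone, had 14135, 12824 and 12424 at P18 and 4008, 4459 and 5016 at 6 months and fell by 1.55 ± 0.11 (adjusted p = 1.23e-08), and Hist3h2ba fell by 1.80 ± 0.14. The member that rose, Hist2h2be, by 0.42 ± 0.15, did not pass with quantile normalization (adjusted p = 0.0846) or without P18 replicate 3 (adjusted p = 0.098), 6 months replicate 2 (adjusted p = 0.0559) or 6 months replicate 3 (adjusted p = 0.0675). Of 78 listed histone genes 21 had enough reads, and 18 were listed at 0 in all 6 samples.

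The genes of the mitochondrial respiratory chain that the nucleus encodes fell in most cases with the deposited values. Of 82 tested, 1 rose, 71 fell and 10 did not pass (median log2 fold change -0.82), against 30.8% of all genes that fell. Ndufv3, a subunit of complex I, had 4063, 3989.7 and 4656 at P18 and 1437, 1852 and 1954 at 6 months and fell by 1.29 ± 0.11 (adjusted p = 6.24e-08). Of the ATP synthase, Atp5d fell by 1.0 ± 0.095 and Atp5g2 fell by 0.94 ± 0.091, and Ndufc1 of complex I fell by 1.10 ± 0.11. In each case there was no overlap, as in 66.4% of all genes tested. Sdha, the catalytic subunit of complex II, had 9708, 10398 and 9214 at P18 and 11961, 12749 and 11712 at 6 months and rose by 0.31 ± 0.088. The summed level of the list was 576985 to 621572 at P18 and 339829 to 421903 at 6 months. These genes are short, with a median exon length of 992 bases against 3348 over all genes tested; with the length trend removed 43 fell and 5 rose, and the median was -0.21. In the same setting Ndufv3 was lower by 1.18, Ndufc1 by 0.69, Atp5d by 0.67 and Atp5g2 by 0.24 on the log2 scale.

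Mitochondrial ribosomal protein genes behaved alike in number. Of 76 tested, 0 rose, 71 fell and 5 did not pass (median log2 fold change -0.64), and with the length trend removed 51 fell and 3 rose (median -0.28). Mrpl53 had 1396, 1391 and 1397 at P18 and 524, 566 and 695 at 6 months and fell by 1.24 ± 0.10 (adjusted p = 5.00e-08). Mrps16 fell by 1.03 ± 0.087, Mrps36 by 0.93 ± 0.082 and Mrpl32 by 1.0 ± 0.092, from 989.5 ± 75.7 to 496 ± 53.4. With the length trend removed Mrpl53 was lower by 0.52 and Mrps36 by 0.21 on the log2 scale. Promoters of tested members of both lists, whichever way the genes moved, were searched for the core of the NRF1 site (GCGC and TGCGC with any base between them, both strands). NRF1 is a known activator of nuclear genes for mitochondria. The promoters found cover 65 respiratory chain and 67 mitochondrial ribosomal genes. The core was found in 17 of 70 respiratory chain promoters (24.3%) and in 12 of 73 mitochondrial ribosomal promoters (16.4%). It was in 4.60% of all 32851 promoters of 300 bases, which cover 27025 genes and so also genes not tested here. These shares describe the lists and not the falls. The core of the metal response element was also more frequent in these promoters, at 37.1% and 39.7% against 25.7% of all. A match shows no binding, and a part of NRF1 in the falls was not tested. The promoter of Mrpl32 is shown as an example, with the match in capitals.
Mrpl32 promoter (chr13:14612988-14613287, minus strand): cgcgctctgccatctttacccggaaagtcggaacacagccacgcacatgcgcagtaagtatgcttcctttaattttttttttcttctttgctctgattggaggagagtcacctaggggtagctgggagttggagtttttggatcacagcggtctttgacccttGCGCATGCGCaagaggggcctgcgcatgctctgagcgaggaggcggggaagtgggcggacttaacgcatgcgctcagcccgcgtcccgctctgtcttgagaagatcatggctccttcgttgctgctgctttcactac

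Cytosolic ribosomal protein genes had no direction that held. Of 83 tested, 4 rose, 25 fell and 54 did not pass (median log2 fold change -0.26), but 38 rose and 9 fell with the length trend removed, and without P18 replicate 3, 44 fell. Rps27l fell by 1.16 ± 0.15 and Rpl29 fell by 0.87 ± 0.13, and with the length trend removed they were lower by 0.36 and 0.21. Many of these genes have processed pseudogenes, so their levels are uncertain. Of 63 translation factors, 9 rose, 29 fell and 25 did not pass (median log2 fold change -0.20); under equal library totals 12 rose and 16 fell. Eif1b fell by 1.0 ± 0.096 and Eif2ak3, the stress kinase PERK, rose by 0.84 ± 0.094. Of 34 proteasome genes, 2 rose, 24 fell and 8 did not pass (median log2 fold change -0.49), against 30.8% of all genes that fell. With the length trend removed 17 fell and 5 rose. Psma4, of the core particle, had 4578, 4611 and 5647 at P18 and 2571, 2663 and 2719 at 6 months and fell by 0.89 ± 0.087, and Psmd11, of the regulatory particle, rose by 0.42 ± 0.086.

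Motor and cytoskeletal genes changed singly. Of 47 kinesin and dynein genes, 17 rose (36.2%), 13 fell (27.7%) and 17 did not pass (median log2 fold change 0.13). These shares lie near those of all genes (32.2% and 30.8%). Once the length trend was removed 12 rose and 14 fell. Kif13b, a kinesin that carries membrane receptors, had 598, 783 and 290.3 at P18 and 3634, 5489 and 3072 at 6 months and rose by 2.94 ± 0.31 (adjusted p = 5.38e-07). Kif19a, a kinesin of cilia, fell by 2.76 ± 0.17, and the dynein subunit Dync1li1 rose by 1.13 ± 0.12. Of 12 tubulin genes, 0 rose, 6 fell and 6 did not pass (median log2 fold change -0.20), 3 fell under equal library totals, and with the length trend removed 1 rose and 5 fell (median -0.083). Tubb2b fell by 0.89 ± 0.098 and Tubb2a by 0.72 ± 0.14. Of 23 proteins that bind myelin mRNA, 10 rose, 7 fell and 6 did not pass (median log2 fold change 0.019), and 3 rose and 8 fell with the length trend removed. Hnrnpab fell by 0.51 ± 0.078 and Hnrnpk rose by 0.47 ± 0.087.

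Of genes listed for the extracellular matrix of immature white matter more rose than fell: of 24 tested, 14 rose, 3 fell and 7 did not pass (median log2 fold change 0.51). With the length trend removed 13 rose and 6 fell (median 0.38). The name is only that of the list, and it does not make the members that rose markers of immature tissue. Hapln4, a link protein of the perisynaptic matrix, had 535, 651 and 529 at P18 and 2255, 2081 and 1917 at 6 months and rose by 1.87 ± 0.11 (limma, adjusted p = 2.07e-09). Timp3, an inhibitor of metalloproteinases, rose by 1.30 ± 0.11 and Sparcl1, a matrix glycoprotein of astrocytes, by 1.19 ± 0.13, while Timp4 fell by 0.40 ± 0.088. Of 39 collagen genes, 14 rose (35.9%), 8 fell (20.5%) and 17 did not pass (median log2 fold change 0.18), against 32.2% and 30.8% of all genes. Under equal library totals 4 fell, and with the length trend removed 12 rose and 9 fell (median -0.023). Col8a2 rose by 1.45 ± 0.19 and Col9a1 fell by 2.32 ± 0.27.

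Of 25 insulin and IGF signalling genes, 12 rose, 7 fell and 6 did not pass (median log2 fold change 0.23); with the length trend removed 8 rose and 7 fell (median 0.086), and 4 fell under equal library totals. The binding proteins Igfbp2 and Igfbp5 rose by 1.05 ± 0.11 and 1.09 ± 0.11, the receptor Igf1r by 1.10 ± 0.13 and the kinase Mtor by 0.92 ± 0.10, and the kinase Akt2 fell by 0.70 ± 0.10. Of 28 genes of energy supply to axons, 14 rose, 6 fell and 8 did not pass (median log2 fold change 0.19). The monocarboxylate transporters Slc16a7 and Slc16a1 rose by 1.75 ± 0.17 and 0.86 ± 0.12, Nat8l, which makes N-acetylaspartate, rose by 0.78 ± 0.09, and Pdk2, which inhibits pyruvate dehydrogenase, fell by 0.60 ± 0.11. Of 24 chaperones, 8 rose, 5 fell and 11 did not pass (median log2 fold change 0.099); the endoplasmic reticulum chaperone Hsp90b1 rose by 1.10 ± 0.15 and the mitochondrial Hspe1 fell by 0.97 ± 0.10. Of 23 immediate early genes, 5 rose, 5 fell and 13 did not pass (median log2 fold change 0.10), and 9 rose without P18 replicate 3. Nr4a2 rose by 0.73 ± 0.096 and Jund fell by 1.01 ± 0.12. Of 13 long non-coding RNAs, 2 rose, 4 fell and 7 did not pass (median log2 fold change -0.04); with the length trend removed 2 rose and 6 fell (median -0.36). Neat1, the scaffold of paraspeckles, had 276, 276 and 405 at P18 and 843, 899 and 981 at 6 months and rose by 1.53 ± 0.16, and the fetal imprinted H19 fell by 3.42 ± 0.59, from 39.8 ± 15.3 to 3 ± 2.

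Among all genes, the largest rises with a mean of at least 50 and no overlap were, after Abca8a, those of Slc6a20a (3.79 ± 0.23), an amino acid transporter of the meninges and choroid plexus, Pdyn (3.76 ± 0.49), the dynorphin precursor, and Ano3 (3.36 ± 0.28), a striatal membrane protein. Slc6a20a had 15.4, 10.2 and 15.1 at P18 and 201, 194 and 199 at 6 months. The adult samples lay within a narrow range. Serpind1, Efemp1, Chrm3, Pcdhga11, Pcdhgc5, Gpr137c, Chdh and Lmbrd2 rose by 2.83 to 3.29. Efemp1, an extracellular matrix fibulin, had 87.9, 71.2 and 42.2 at P18 and 584, 529 and 607 at 6 months. Chrm3, a muscarinic receptor, had 20.2, 26 and 42.2 at P18 and 305, 222 and 221 at 6 months. The protocadherin gamma genes share exons, so reads of Pcdhga11 and Pcdhgc5 cannot be assigned with certainty.

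Under the same conditions, a mean of at least 50 and no overlap, the largest fall was that of Il23a, a subunit of interleukin 23. Il23a had 317, 316 and 277 at P18 and 7.31, 5.33 and 6.81 at 6 months, nearly lost in the adult (5.35 ± 0.31 on the log2 scale, limma, adjusted p = 2.17e-09). Separation of the ages was thus a condition for naming the falls given here. Tekt4, a structural protein of cilia, had 137, 153 and 223 at P18 and 8.12, 8.88 and 10.7 at 6 months and fell by 4.04 ± 0.36. Itgad, an integrin subunit, had 71.3, 104 and 159.7 at P18 and 8.12, 8.88 and 4.87 at 6 months and fell by 3.72 ± 0.45. Arpc1b, a subunit of the actin-nucleating Arp2/3 complex, had 3627, 3931 and 2324 at P18 and 315, 362 and 357 at 6 months, with all adult values far below P18, and fell by 3.22 ± 0.15 (adjusted p = 4.29e-10). Wdfy1, an endosomal adaptor, had 2310.03, 2207 and 1903 at P18 and 310.4, 305 and 279 at 6 months and fell by 2.84 ± 0.093 (adjusted p = 6.10e-12). Srd5a1, a steroid reductase, had 1911, 2476 and 1204 at P18 and 266, 272 and 253 at 6 months and fell by 2.76 ± 0.18. Rassf10 fell by 2.99 ± 0.24, Hif3a by a log2 difference of -2.78 ± 0.23, Cldn14 of -2.78 ± 0.20 and Pglyrp1 of -2.75 ± 0.32. Just 1 gene had 0 reads in the 3 P18 samples and at least 10 in each 6 months sample: Zscan5b, with 16, 20 and 21 reads, and no gene showed the reverse.

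The other ages place these values. The comparison with P75 shares the 6 months samples, and so does that with 24 months, so their values are set side by side. At an adjusted p below 0.05, 52.4% of genes passed between P75 and 6 months and 19.2% between 6 months and 24 months. On the second principal component of the 12 samples (17.3% of the variance) the ages were not in order. P18 lay at 16.0 to 19.8 and 6 months at 17.2 to 29.1, P75 at -37.9 to -21.2 and 24 months at -19.0 to -6.90. Batch and age cannot be told apart in these comparisons either. Most of the fall of Sirt2 lay before P75: Sirt2 had a mean of 4822 ± 173 by P75, then 4126 ± 580.1 at 6 months and 3199 ± 45.7 by 24 months, and its difference between P75 and 6 months did not pass (-0.23 ± 0.12). The metallothioneins were still high at P75: Mt1 had 19483 ± 3599 there against 23615 ± 4537 at P18, and 8455 ± 1734 at 24 months, and its difference of 6 months minus P75 was -2.08 ± 0.18 (limma, adjusted p = 3.74e-07). Ndufv3 likewise had 3405 ± 308 at P75 and 2011 ± 93.6 at 24 months (-0.97 ± 0.11 from P75 to 6 months). Olig1 lay between, at 4989 ± 226, and fell again to 6 months (-0.95 ± 0.091).

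Across these samples, rises also differed in their timing. Qdpr was highest at P75, at 51111 ± 3889, and lower at 6 months (-0.76 ± 0.22). Ptgds, with a P18 mean of 7559.8 ± 586, had reached 26795 ± 2481 by P75. It rose again to 47176 ± 2025 in the 6 months samples (0.82 ± 0.12 from P75, limma, adjusted p = 3.35e-05). The 24 months mean was higher still (54593 ± 4281), but its difference from 6 months did not pass (0.21 ± 0.12, adjusted p = 0.229). Syt1 was at 3851 ± 345 at P75, near its P18 mean of 3254 ± 555, and reached 19472 ± 2226 at 6 months (2.34 ± 0.13, adjusted p = 7.34e-09). C1qa went on rising to 2319.6 ± 349.5 at 24 months (0.82 ± 0.10 from 6 months).

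**Figure D5:**
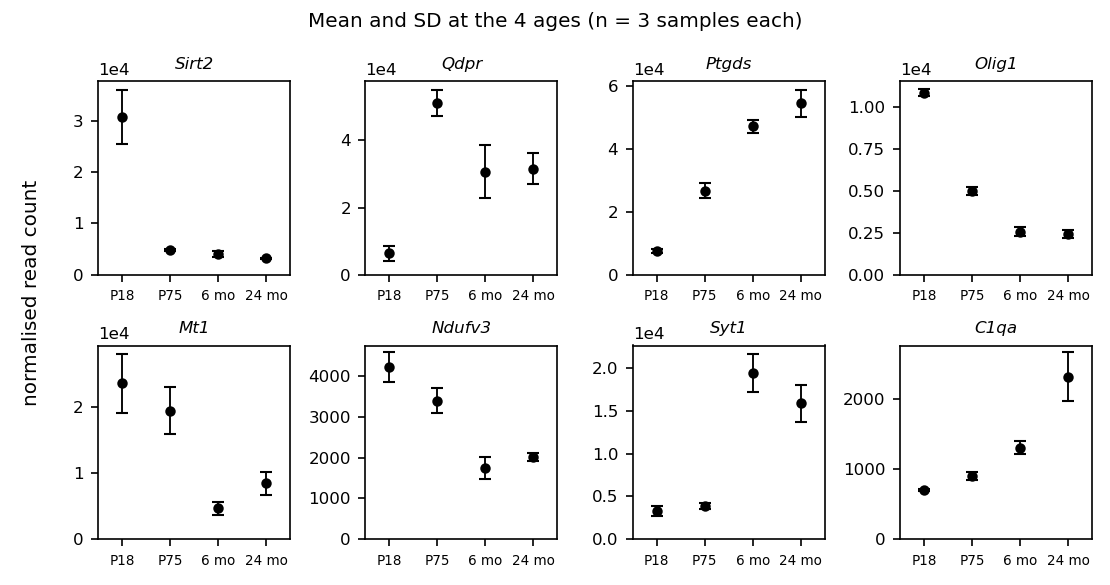
Mean normalised read count and SD (n = 3 samples) of 8 genes at P18, P75, 6 months and 24 months (y axes linear, from 0). Sirt2 is low from P75 on, Mt1 and Ndufv3 fall between P75 and 6 months, Syt1 rises between these ages, and C1qa is highest at 24 months.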

How the data were processed

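RNA of a myelin-enriched membrane fraction was read by RNA-seq in 12 samples, 3 at each of 4 ages. The deposited table gives 1 signal per gene and sample for 21937 genes. Per the submitters' processing notes, TopHat, HTSeq, DESeq and mm9 were used; versions, RNA extraction and library construction are not given in the sources used here. The signal values deposited by the authors are read counts divided by 1 size factor per sample: dividing by the smallest step gave whole reads for 100% of values within a tolerance of 0.0061. In 3 columns the step lay within 1% of 1. Each of the 12 samples held 20299052 to 27214385 reads, and intervals on depth cover counting error only.

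Genes with a value of at least 10 in at least 3 of the 12 samples were tested (14987 genes, with 6950 below that limit) with limma 3.58.1 in R 4.3.3 on log2(value + 1), over all 12 samples as 4 ages (8 residual degrees of freedom), with a trend of the variance and Benjamini-Hochberg adjustment over all genes at a threshold of 0.05. The 6 months samples were compared with the P18 samples. The tests were tried on simulated data with known changes. Alternatives were pseudocounts of 0.5 and 10, no filter and a minimum of 50, TMM factors, equal library totals, quantile normalization, edgeR 4.0.16 and DESeq2 1.42.0 on the recovered reads, the 6 samples alone, a replicate block, removal of the length trend (lowess, span 0.3) and leaving out each sample.

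The comparison, its 46 lists of genes and the naming rule were chosen with earlier results of these data known. The rule takes the 15 largest rises and 15 largest falls that passed with a mean of at least 50 and no overlap, leaving out unnamed, clone, pseudogene and small RNA entries, and, per list, the 4 members with the lowest adjusted p, the best of the opposite direction and members stated as not passing, with Mbp, Mobp, Cnp, Mag, Mog, Cldn11, Mal, Fth1 and Trf. Some genes that the rule takes are not reported here. Defining markers of each cell type were fixed with the lists. C4b, Cd81, Myadm, Pmp22, Gpm6b, Gsn, Qdpr, Psap, Galc, Fa2h, Ugt8a, Fkbp5, Lyz2, Gap43, Mki67, Dynlrb2, Zscan5b, 0610007P14Rik and the Mcm genes were named after their values were seen. Exon lengths came from an annotation of build GRCm38, matched by symbol (14822 of the tested genes), and promoters from RefSeq GRCm38.p6; no mm9 coordinates are given.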

Additional observations from a re-analysis of the deposited data

How the results depend on the processing

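The 3 counts over all genes stayed within 1.5 times the reported ones under all 18 alternatives. Leaving out 1 sample gave 4367 to 4823 genes that rose, 4063 to 4545 that fell and 2309 to 2751 that passed at 2-fold or more. The share of higher calls was 51.1% as reported, 61.7% with equal library totals, 46.4% with quantile normalization and 48.3% with the length trend removed. Samples with the same number at the 2 ages share only that number: the correlations of their deviations were -0.059, 0.14 and 0.043, and with a replicate block 4774 genes rose and 4506 fell. Of 3938 pairs of a named gene and a setting, 3 reversed: Col1a1 gave -0.37 to 0.16 when 1 sample was left out, positive without P18 replicate 1, and with the length trend removed Gm2a gave -0.10 and Pdgfra -0.013. None of these values passed, and the cause was not tested. Counts of members per list moved by over 1.5 times in 74 cases, 18 of them with the length trend removed, 13 without P18 replicate 3 and 12 with equal library totals. Depth limits genes near 10 reads, such as Cst7 and Itgax.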
